A study of Mus musculus with 6 samples.

Results

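Endothelial cells line blood vessels, and 10 genes that are widely used to recognise them were followed here across acinar cell preparations of mouse pancreas: Pecam1, Cdh5, Kdr, Flt1, Tek, Tie1, Eng, Ecscr, Emcn and Vwf. The members were taken from the array by the RefSeq accession printed for each probe, which gave 11 probes for the 10 genes among 56605 non-control probes for 23462 named genes. Of the 10 genes, 9 had 1 probe and Ecscr had 2. All 10 were well above background on all 6 arrays, so none was lost to the filter on dim probes, and no member's spot was saturated or marked as an outlier.

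The arrays compare 2 genotypes of mice on the C57BL/6 strain. Both carry a Cre recombinase expressed from Ptf1a, a gene of the pancreatic epithelial lineage. The samples called KC (n = 3) are the controls, and those called KCS differ from them by Setdb1flox/flox, in which Cre can inactivate both copies of the histone methyltransferase gene Setdb1 (n = 3). The labels give the material as isolated acinar cells and name no age, sex or treatment. They do not say whether the samples came from separate animals, so the p-values measure the spread between these samples, which may be partly technical. Vessels arise outside the epithelial lineage in which Ptf1a is active, so the Cre driver is not one of endothelial cells.

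Endothelial identity rests on a small set of surface systems. Vascular endothelial growth factors act through the tyrosine kinases encoded by Kdr and Flt1, angiopoietins act through the product of Tek with its relative Tie1, and endoglin, from Eng, helps bone morphogenetic proteins to signal through the kinase ALK1. Pecam1 and Cdh5 encode adhesion molecules of the contacts between endothelial cells, Emcn encodes a sialomucin of the vessel surface, and Vwf encodes the clotting protein stored in endothelial granules. In the pancreas a dense capillary bed surrounds acini and islets, and vessels are therefore a usual companion of acinar cells in a tissue digest.

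Of the 10 genes, 6 had an entry in the RefSeq promoter table of build GRCm38.p6. The 250 bases before the annotated start are shown for the pair of VEGF receptors, whose changes were unequal, and for Eng and Emcn, both of which rose. Capitals mark AGGAAG, the core bound by ETS factors together with flanking bases, and TATAAA, the TATA box. Many endothelial promoters carry the ETS core. Each motif was searched on both strands, and a match of AGGAAG on the other strand reads CTTCCT here. The Kdr stretch lies at chr5:75978456-75978705 on the minus strand, that of Flt1 at chr5:147726012-147726261 on the minus strand, that of Eng at chr2:32646345-32646594 on the plus strand and that of Emcn at chr3:137340828-137341077 on the plus strand.
Kdr: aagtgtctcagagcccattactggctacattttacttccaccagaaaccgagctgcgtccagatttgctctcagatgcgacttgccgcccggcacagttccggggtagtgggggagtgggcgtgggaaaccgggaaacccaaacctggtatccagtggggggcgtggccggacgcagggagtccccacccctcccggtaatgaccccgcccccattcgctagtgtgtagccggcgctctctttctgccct
Flt1: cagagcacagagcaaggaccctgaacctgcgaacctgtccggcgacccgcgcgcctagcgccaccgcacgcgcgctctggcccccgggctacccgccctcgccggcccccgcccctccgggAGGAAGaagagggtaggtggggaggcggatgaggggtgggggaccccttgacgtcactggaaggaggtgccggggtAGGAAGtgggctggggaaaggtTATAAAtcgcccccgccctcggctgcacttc
Eng: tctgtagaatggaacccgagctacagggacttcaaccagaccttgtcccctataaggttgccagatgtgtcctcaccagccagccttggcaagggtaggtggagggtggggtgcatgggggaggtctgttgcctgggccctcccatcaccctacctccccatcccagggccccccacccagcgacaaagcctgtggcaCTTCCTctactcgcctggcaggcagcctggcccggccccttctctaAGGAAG
Emcn: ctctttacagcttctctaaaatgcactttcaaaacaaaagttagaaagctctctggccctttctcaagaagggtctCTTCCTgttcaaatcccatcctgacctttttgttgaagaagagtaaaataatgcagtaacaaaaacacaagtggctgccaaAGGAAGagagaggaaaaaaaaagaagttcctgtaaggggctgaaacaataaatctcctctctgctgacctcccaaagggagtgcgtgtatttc
AGGAAG occurred in 4 of the 6 promoters, those of Flt1, Tie1, Eng and Emcn, and in 29.5% of 32841 promoter stretches of this length. No marked motif overlapped another. TATAAA occurred in that of Flt1 alone among the 6, 31 bases before the start, and in 12.4% of all. The motif of GATA factors, searched on both strands as AGATAA, was in none of the 6 and in 9.99% of all. A match describes letters and is not a bound site. The promoter of Flt1, a gene that was not called, and that of Eng, which was, each held AGGAAG at 2 positions, whereas the Kdr stretch held none of the 3 motifs. The ETS core with other flanking bases was not searched, so a stretch without AGGAAG may still hold it.

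Some facts of the whole series bear on every value below. Levels are log2 processed signals minus the 75th percentile of the same array, so 0 is that percentile and a difference of 1 is a doubling relative to it. The percentile lay at 61.2 to 68.6 scanner units on KC and 347 to 423 on KCS arrays, and 26550 to 27237 probes were well above background on KC against 35366 to 35920 on KCS arrays. Among 27096 rows tested (1 per named gene or unnamed probe), limma called 25.9% higher and 34.4% lower in KCS at an adjusted p below 0.05, and the median change of all rows was -0.19. The targeted gene Setdb1 has 1 probe, whose position relative to the loxP sites is not known here, and it was 0.33 ± 0.24 higher in KCS (log2, SE, limma adjusted p = 0.270). That difference was 0.19 without KC replicate 2 and 0.55 without KC replicate 3, 0.63 on slide 1, 0.18 on slide 2 and 0.09 with normexp correction, and it was called with median centring (0.69, limma adjusted p = 0.0443) and with spike-in scaling (3.23, limma adjusted p = 1.59e-05). The labelled cell type was borne out by the KC arrays, and acinar signal was far lower on every KCS array. The median level of 12 acinar genes was 11.15 to 11.32 on KC arrays, and -5.15, -2.91 and 4.51 on KCS replicates 1, 2 and 3. KCS replicate 3 thus stood apart by its acinar signal, and values without it are given below. In a bulk sample more endothelial cells and more of a transcript per endothelial cell cannot be told apart.

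Of the 10 endothelial genes, 8 rose in KCS, none fell and 2 were not called, beside the 25.9% of all rows that were called higher and the 60.3% called in either direction. The risen genes were Vwf, Ecscr, Eng, Cdh5, Emcn, Tie1, Kdr and Tek, with fitted folds from 1.84 to 6.64. Pecam1 and Flt1 did not pass. The median log2 change of the 10 was 1.30, against -0.19 over all rows. On slide 1 alone that median was 1.65 and on slide 2 alone 1.12, and with the slide as a block the count of risen genes was again 8. Every KCS array lay above every KC array for the same 8 genes, where 29.8% of all rows had that order and 38.4% the opposite one. Without KCS replicate 3 the count of risen genes was 9, Pecam1 being the addition, and it was 6 without KCS replicate 1 or without KCS replicate 2.

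**Figure D1:**
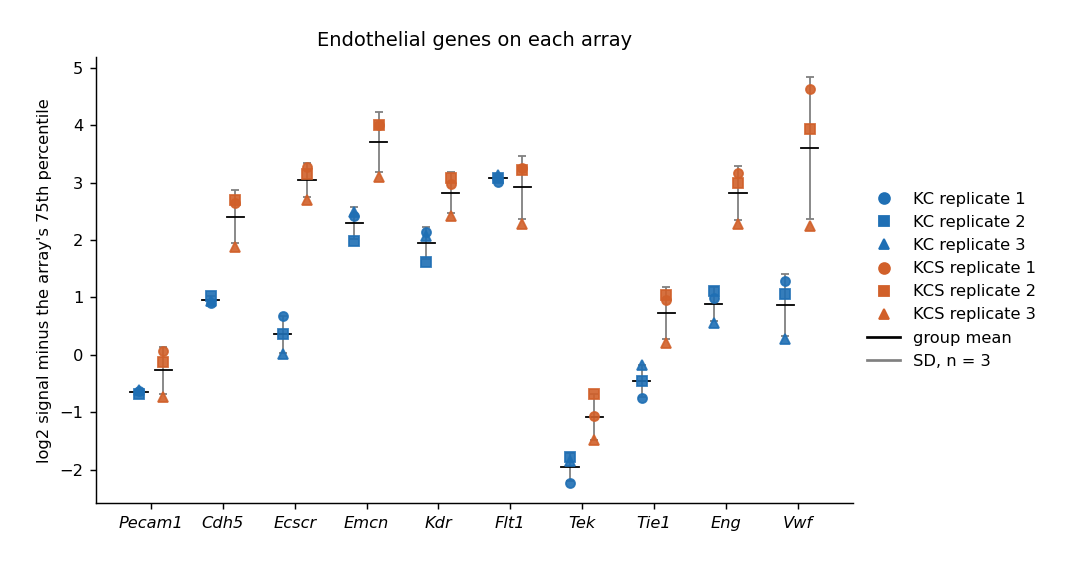
Level of each endothelial gene on the 6 arrays, as log2 signal minus the array's 75th percentile, with each group's mean and SD (n = 3). For every gene KCS replicate 3 is the lowest KCS array, and the groups overlap for Pecam1 and Flt1 alone.

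The junction and surface genes came first. Cdh5, which encodes VE-cadherin, the cadherin of endothelial adherens junctions, was at 0.90, 1.03 and 0.94 on KC replicates 1 to 3 and at 2.64, 2.70 and 1.87 on KCS replicates 1 to 3. The 3 KC values lay close together and the lowest KCS value was well above them. Cdh5 rose by 1.45 ± 0.26 (log2, SE, limma adjusted p = 0.00358), with 1.74 on slide 1 and 1.30 on slide 2. Pecam1 encodes CD31, an adhesion molecule of endothelial contacts that platelets and leukocytes carry too. It was at -0.63, -0.68 and -0.62 on the KC arrays and at 0.06, -0.13 and -0.73 on the KCS arrays. KCS replicate 3 lay below all KC values and the other KCS arrays above them, so the groups overlapped. The change of Pecam1 was 0.37 ± 0.24 with a 95% interval of -0.21 to 0.96 (limma adjusted p = 0.219), and without KCS replicate 3 it was 0.61 (limma adjusted p = 0.0445). On slide 1 alone the difference was 0.69, and on slide 2 alone 0.22.

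Emcn, the sialomucin gene of capillary and venous endothelium, was at 2.42, 1.99 and 2.49 on KC and at 4.01, 4.0 and 3.11 on KCS arrays. The groups did not overlap. Emcn rose by 1.41 ± 0.31 (limma adjusted p = 0.00765), with 1.60 on slide 1 and 1.32 on slide 2. Ecscr encodes a small membrane protein of endothelial cells that takes part in their migration and survival. Its brighter probe was at 0.68, 0.37 and 0.02 on KC and at 3.28, 3.15 and 2.71 on KCS arrays, and the gap of 2.03 between the nearest arrays of the groups was the widest among the 10 genes. Ecscr rose by 2.69 ± 0.25 (limma adjusted p = 0.000312), with 2.60 on slide 1 and 2.73 on slide 2. The second probe of Ecscr gave a difference of 2.81 between the group means, from -0.80 ± 0.11 (SD, n = 3) in KC to 2.01 ± 0.25 (SD, n = 3) in KCS, so both probes of the gene gave a like result.

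Among the receptors, the pair for VEGF behaved unequally. Kdr, which encodes VEGFR2, the main signalling receptor of endothelial growth, was at 2.13, 1.62 and 2.07 on KC and at 2.97, 3.09 and 2.42 on KCS arrays. The groups were separate by 0.28, the smallest gap among the 8 risen genes. Kdr rose by 0.88 ± 0.26 (limma adjusted p = 0.0233). Slide 1 alone gave 0.84 and slide 2 alone 0.91, and the call was lost without KC replicate 2, without KCS replicate 1 and without KCS replicate 2 (limma adjusted p = 0.0659, 0.0685 and 0.0830). Flt1 encodes VEGFR1, which binds VEGF tightly, signals weakly and has soluble forms. It was at 3.01, 3.07 and 3.14 on KC and at 3.25, 3.22 and 2.29 on KCS arrays. KCS replicates 1 and 2 lay slightly above the KC arrays and KCS replicate 3 below them. The difference for Flt1 was -0.16 ± 0.29 with a 95% interval of -0.86 to 0.55 (limma adjusted p = 0.666), and it was 0.16 without KCS replicate 3, 0.20 with median centring, 0.24 on slide 1 and -0.36 on slide 2. Which transcripts of Flt1 the probe covers is not known here.

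Tek encodes TIE2, the receptor of the angiopoietins, and was the dimmest of the 10, at 14.1 to 20.0 scanner units on KC arrays where the lowest signals well above background were 7.8 to 8.09. Its scaled values were -2.24, -1.78 and -1.85 on KC and -1.07, -0.68 and -1.49 on KCS arrays, with no overlap. Tek rose by 0.88 ± 0.26 (limma adjusted p = 0.0263), with 1.17 on slide 1 and 0.73 on slide 2. That call was lost without KC replicate 1, KC replicate 3, KCS replicate 1 or KCS replicate 2 (limma adjusted p up to 0.0847), and with normexp background correction the value was -0.14. Tie1, the relative that pairs with TIE2, was at -0.75, -0.45 and -0.18 on KC and at 0.95, 1.04 and 0.21 on KCS arrays. KCS replicate 3 was nearest to the KC arrays but still above them. Tie1 rose by 1.19 ± 0.29 (limma adjusted p = 0.0114), with 1.70 on slide 1 and 0.94 on slide 2.

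Eng, the endoglin gene, is active in endothelium and also in some macrophages and stromal cells. It was at 0.98, 1.12 and 0.55 on KC and at 3.17, 2.99 and 2.28 on KCS arrays, which do not overlap. Eng rose by 1.93 ± 0.29 (limma adjusted p = 0.00181), a 3.81-fold change, with 2.19 on slide 1 and 1.80 on slide 2. Vwf encodes von Willebrand factor, which tethers platelets to injured vessel walls and is made by endothelial cells and megakaryocytes. It was at 1.29, 1.06 and 0.27 on KC and at 4.63, 3.94 and 2.24 on KCS arrays. No other member varied as much within a group, with an SD of 0.54 in KC and 1.23 in KCS (n = 3 each). Vwf rose by 2.73 ± 0.63 (limma adjusted p = 0.00955), a 6.64-fold change, with 3.34 on slide 1 and 2.43 on slide 2.

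**Figure D2:**
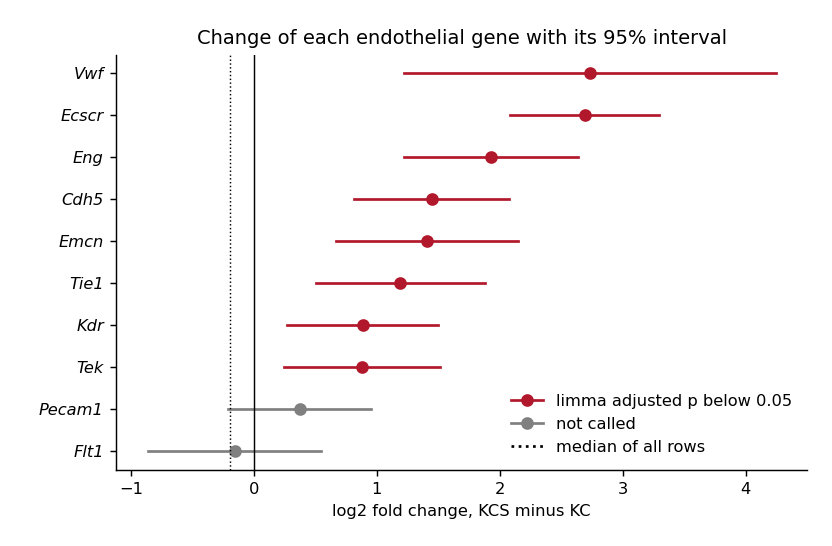
Fitted log2 fold change of each endothelial gene, KCS minus KC, with its 95% interval from limma (n = 3 per group). The interval of Vwf is the widest, those of Pecam1 and Flt1 cross 0, and the dotted line marks the median of all 27096 rows at -0.19.

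All 10 genes were lowest on KCS replicate 3 among the KCS arrays, while the lowest KC array differed from gene to gene, replicate 1 for 4 of them and replicates 2 and 3 for 3 each. The SD within KCS was larger than within KC for 9 of the 10, Ecscr being the exception. KCS replicate 3 was also the KCS array with the most acinar signal (above), and the part of that signal in the endothelial values was not tested. Leaving this array out raised the median change of the 10 from 1.30 to 1.58.

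The unequal changes can also be read within each array, where the scaling cancels. These 11 log2 ratios, 9 members to Pecam1 and the receptor pairs, were chosen after the values had been seen. Relative to Pecam1 on the same array, Ecscr was 2.31 higher in KCS than in KC, Vwf 2.36, Eng 1.55, Cdh5 1.07, Emcn 1.03 and Tie1 0.82. Kdr was 0.51 higher relative to Pecam1 and Tek 0.50, and Flt1 was the only member whose ratio to Pecam1 was lower, with a difference of -0.53. The ratio of Kdr to Flt1 was -0.87, -1.45 and -1.07 on KC and -0.28, -0.13 and 0.13 on KCS arrays, a difference of 1.04. The ratio of Tie1 to Tek differed by 0.31, from 1.5 ± 0.17 to 1.81 ± 0.18 (SD, n = 3 each). In 10 of the 11 ratios the groups did not overlap, Tek to Pecam1 being the exception. Since 9 of the 11 share Pecam1, a gene that was not called, the ratios are not independent of each other. The share of non-overlap among ratios of other genes was not computed. Among single rows it was 29.8% with KCS above KC and 38.4% with KCS below. With 3 arrays against 3, the smallest p that an exact two-sided permutation test can give is 0.1, and those 10 ratios had it (0.11 after Benjamini-Hochberg adjustment over the 11 exact tests).

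**Figure D3:**
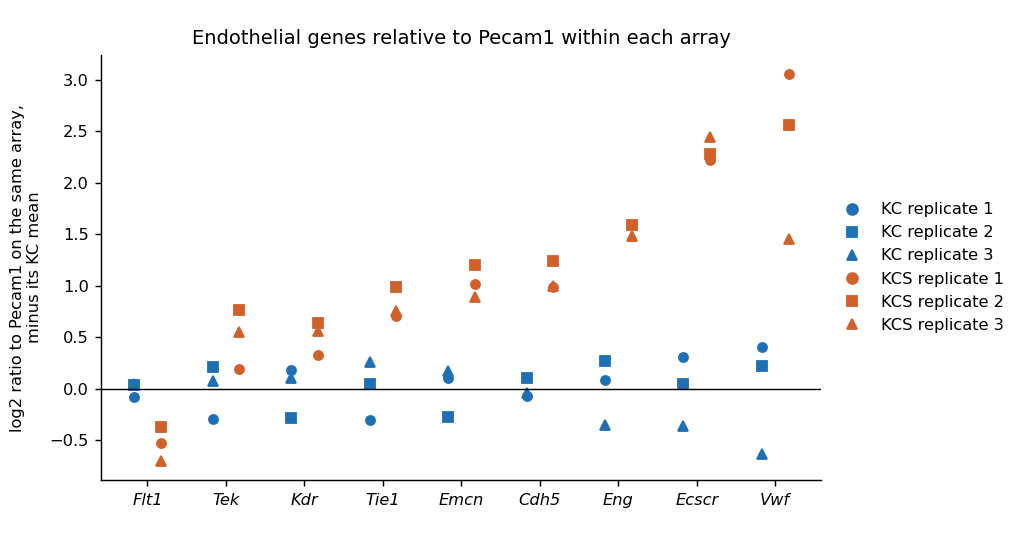
Log2 ratio of each endothelial gene to Pecam1 on the same array, minus the KC mean of that ratio, for the 6 arrays. Flt1 lies below 0 on the KCS arrays, Vwf is spread most widely, and Ecscr, Vwf and Eng are the 3 highest genes on each KCS array.

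The scaling of the arrays sets the size of the changes. With the spike-in controls as the reference in place of the 75th percentile, all 10 genes were called higher, from 2.74 for Flt1 to 5.63 for Vwf, and the median of all rows was 2.70 on that scale. The members' median exceeded that of all rows by 1.49 under the 75th percentile, median centring and spike-in scaling, which shift all rows of an array alike, and by 1.31 after quantile normalization. Cdh5, Eng, Ecscr, Emcn and Vwf were called higher in all 20 alternatives with a test, and the calls of Kdr, Tek and Tie1 were lost on slide 2 alone (limma adjusted p = 0.0804, 0.133 and 0.0824), where 5 of the 10 genes passed.

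**Figure D4:**
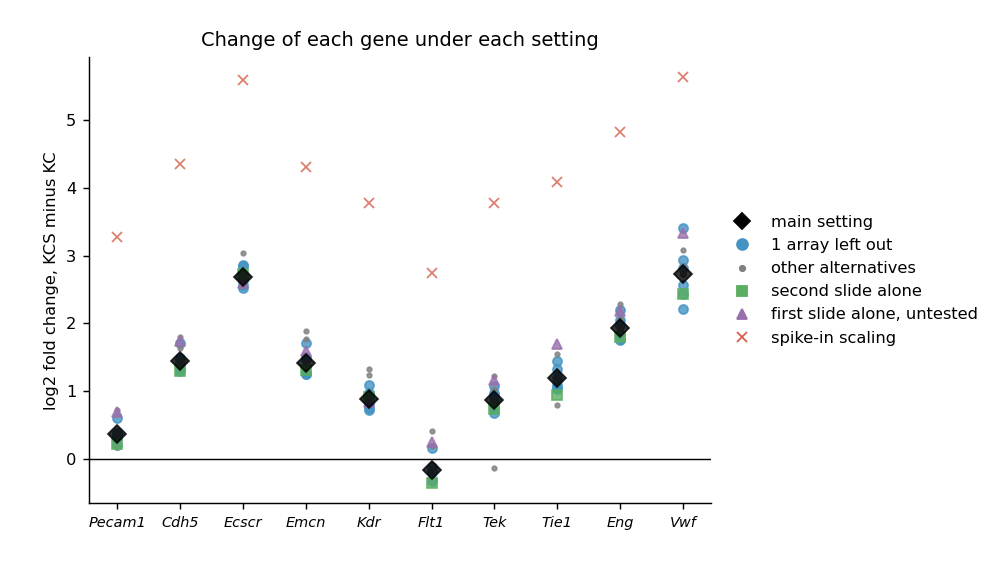
Log2 fold change of each endothelial gene under the main setting, with 1 array left out, within each slide, with spike-in scaling and under the other alternatives. Flt1 changes sign between settings, Tek is below 0 under normexp correction only, and the other 8 stay above 0 in all settings shown.

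The ligands of these receptors did not move one way, and neither did all rows. Of 8 VEGF and angiopoietin ligand genes, 2 rose, 2 fell and 4 were not called. These 25% in each direction are near the 25.9% higher and 34.4% lower over all rows. The median of the 8 was 0.37, with 0.10 without KCS replicate 2, 0.60 without KCS replicate 3 and 0.72 with median centring. With spike-in scaling 7 were called higher and none lower. Vegfc, the growth factor of lymphatic vessels, rose by 2.79 ± 0.28 (limma adjusted p = 0.000401), from -0.49, -0.82 and -0.74 on KC to 2.25, 2.51 and 1.55 on KCS arrays. Angpt4 stayed at background on all 3 KC arrays and so passed the filter through KCS alone. Its call (limma adjusted p = 0.000137) thus sets KCS against background values. Its bound under the 75th percentile scaling was 2.62-fold higher in KCS, though normexp correction left it at -0.20. Vegfb fell by 1.53 ± 0.26 (limma adjusted p = 0.00297), and Angpt2, which endothelial cells release and which can oppose TIE2 signalling, fell by 2.28 ± 0.49 (limma adjusted p = 0.00713). With spike-in scaling the values of Vegfb and Angpt2 were 1.37 and 0.62, so their falls are relative to the 75th percentile. Vegfa, the main ligand of VEGFR2, was at 0.49 ± 0.35 by its brightest probe (limma adjusted p = 0.258). The second of its 4 probes went the other way, from 2.32, 1.75 and 2.56 on KC to 1.12, 1.58 and 1.05 on KCS arrays. Angpt1, the activating ligand of TIE2, was at 0.24 ± 0.24 (limma adjusted p = 0.419), Vegfd at 0.97 ± 0.60 (limma adjusted p = 0.198) and Pgf, which binds VEGFR1, at -0.63 ± 0.23 (limma adjusted p = 0.0540).

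Of 8 genes for co-receptors and partners, 6 passed the filter on dim probes. Bmpr2, a type II receptor for bone morphogenetic proteins, rose by 1.31 ± 0.22 (limma adjusted p = 0.00277). Acvrl1, which encodes ALK1, the kinase that endoglin assists, rose by 0.94 ± 0.28 (limma adjusted p = 0.0259), a call lost without KC replicate 1, KC replicate 3 or KCS replicate 1 (limma adjusted p up to 0.0803). Nrp1, a co-receptor of VEGFR2, rose by 0.84 ± 0.20 (limma adjusted p = 0.0112), but with the mean of its 3 probes it was 0.28 (limma adjusted p = 0.324). Nrp2 fell by 1.57 ± 0.28 by its brightest probe (limma adjusted p = 0.00337), while a second probe went from 1.77, 2.22 and 2.49 on KC to 4.19, 4.09 and 3.11 on KCS arrays, and with spike-in scaling the brightest probe gave 1.33. The direction of Nrp2 is therefore not settled by these probes. Flt4, the VEGFC receptor gene, was called higher (limma adjusted p = 0.00269), but it was at background on all 3 KC arrays. It passed the filter through KCS alone, its bound allows no change, and normexp correction gave -1.02. Ptprb, a phosphatase that restrains TIE2, was at -0.21 ± 0.30 (limma adjusted p = 0.567). Gdf2 and Bmp10, the ligands of ALK1, were at or near background and were not tested.

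A wider set of endothelial genes showed rises and falls. Of 30 junction, surface and vessel genes 17 rose, 4 fell and 9 were not called (median 0.84). These are 56.7% higher and 13.3% lower, beside 25.9% and 34.4% of all rows. Slide 1 gave a median of 1.05 and slide 2 one of 0.75 with 9 genes called higher, and the count was 12 without KCS replicate 2 and 22 without KCS replicate 3. Jam2, a junctional adhesion molecule, rose by 2.17 ± 0.21, Cd93, a surface lectin of endothelium and myeloid cells, by 2.05 ± 0.29, Podxl by 1.75 ± 0.27 and Icam2 by 1.32 ± 0.21. Those that fell were Stab2, a scavenger receptor of sinusoidal endothelium, by 2.42 ± 0.33, Gpihbp1, the capillary anchor of lipoprotein lipase, by 1.94 ± 0.36, Mcam by 1.24 ± 0.34 and Gpr182 by 1.10 ± 0.35. With spike-in scaling these became 0.48, 0.96, 1.65 and 1.79, so these falls too hold relative to the percentile. The calls of Mcam and Gpr182 were lost with median centring (limma adjusted p = 0.0781 and 0.118). Both also ended without KCS replicate 2 or KCS replicate 3, and that of Gpr182 also without KC replicate 1 or KC replicate 2 (limma adjusted p from 0.0524 to 0.0928). Stab2 was at -1.10 with the mean of its 2 probes (limma adjusted p = 0.0708).

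Of 14 tested genes for endothelial transcription factors, 8 rose and none fell, with a median of 0.94, and 5 were called without KC replicate 3, without KCS replicate 1 or on slide 2 alone. The 8 are 57.1% of the list, beside 25.9% of all rows called higher. Ets1 rose by 3.21 ± 0.25 and Fli1 by 2.40 ± 0.18, both ETS factors that leukocytes express too, and the blood and endothelial factors Lyl1 and Tal1 by 2.79 ± 0.22 and 1.98 ± 0.24. Tal1 was well above background on 1 KC array, and normexp correction left it at 0.04. Erg, the ETS factor most restricted to endothelium, was at 0.94 ± 0.34 and just missed the threshold (limma adjusted p = 0.0522). Sox17, an arterial factor, was at -0.30 ± 0.39 and Gata2 at 0.17 ± 0.31 (limma adjusted p = 0.528 and 0.650). Of 8 tested arterial and Notch genes 3 rose and none fell (median 0.97), namely Efnb2 by 2.15 ± 0.22, Gja4 by 1.62 ± 0.34 and Notch4 by 1.08 ± 0.22. The 3 are 37.5% of the list, where 25.9% of all rows were called higher and 34.4% lower. Slide 1 and slide 2 gave medians of 1.37 and 0.81 for the transcription factors and of 1.31 and 0.87 for the arterial genes. The arterial count was 5 with quantile normalization, 7 with median centring and 8 with spike-in scaling, and their median was 0.45 with normexp correction. The count was 5 without KC replicate 2 and 6 without KCS replicate 3.

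Of 8 genes for leukocyte adhesion and venous identity 7 rose and none fell, where 25.9% of all rows were called higher. With 1 array left out 5 or 6 were called higher, and 4 on slide 2 alone. The median of the 8 was 2.23. It became 1.32 when genes at background were set to their bounds and 0.94 with normexp correction. Vcam1, the receptor for leukocyte integrins on activated endothelium, which stromal cells and macrophages can also make, was at -1.22, -1.66 and -1.93 on KC and at 4.16, 3.40 and 2.86 on KCS arrays. It rose by 5.08 ± 0.37 (limma adjusted p = 0.000155). Icam1 rose by 3.75 ± 0.21 and Selp, the P-selectin gene of endothelium and platelets, by 3.11 ± 0.27, with Selp well above background on 1 KC array. Madcam1, a mucosal addressin gene, stayed at background in KC and its level in KCS was at least 1.87-fold higher (limma adjusted p = 0.000353), though normexp correction gave -0.36. Sele, the E-selectin gene, was at background on all 3 KC arrays and was not called (limma adjusted p = 0.111). Among 6 lymphatic genes Pdpn rose by 3.73 ± 0.34, although fibroblasts also express it, and Prox1 fell by 1.17 ± 0.20, but was 1.73 higher with spike-in scaling. These 16.7% in each direction lie below the 25.9% higher and 34.4% lower over all rows. Lyve1 was at 0.90, 1.04 and 0.29 on KC and at 0.09, -2.17 and 1.39 on KCS arrays, so the KCS arrays lay on both sides of the KC arrays. Without KCS replicate 1 the lymphatic count was 3 risen and 1 fallen. The median of the 6 was 0.54, with -0.81 on slide 1, 1.75 on slide 2, -0.11 without KCS replicate 3 and -0.66 with normexp correction, so it has no settled direction.

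**Figure D5:**
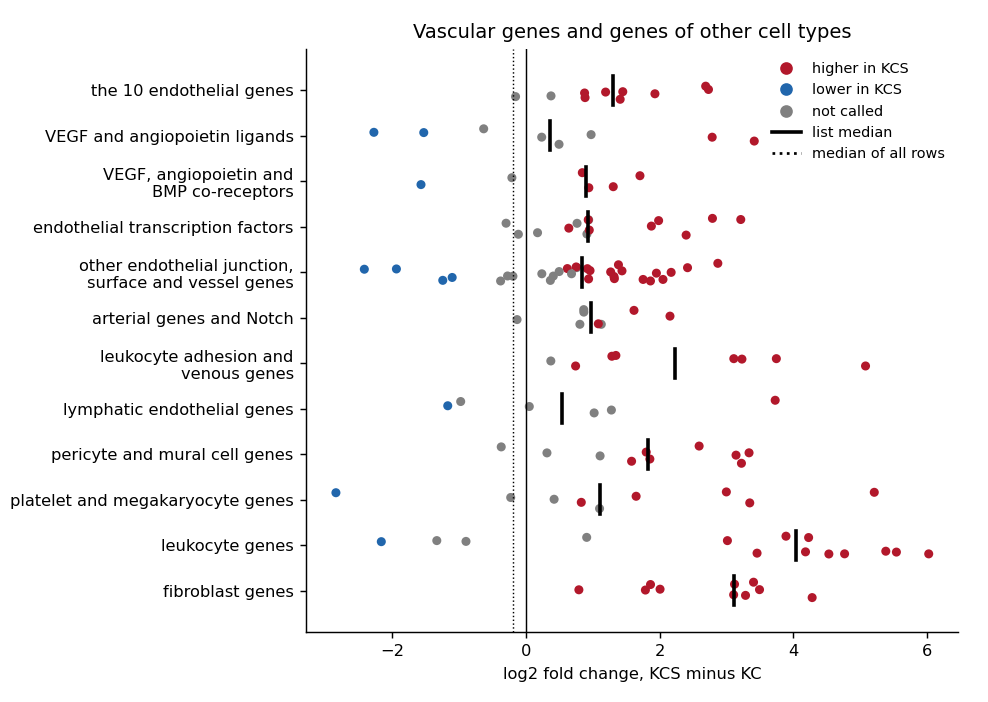
Log2 fold change, KCS minus KC, of each tested gene of the endothelial set, the vascular lists and the lists for other cell types, coloured by the limma call, with each list's median. Leukocyte and fibroblast genes have the highest medians, 4.04 and 3.11, and the endothelial set lies at 1.30. Acinar genes, with a median of -10.20, are left off the axis.

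Genes of other cells moved beside the endothelial set. Genes called higher were 70% of the pericyte and mural, 100% of the fibroblast and 71.4% of the leukocyte list. Genes called lower were 7.14% of the leukocyte and 100% of the acinar list. Over all rows 25.9% were called higher and 34.4% lower. Of 10 pericyte and mural cell genes 7 rose and none fell (median 1.83), and their summed level, in multiples of the 75th percentile, ran from 20.2 to 25.3 across KC and from 62.7 to 109 across KCS arrays. Pdgfrb rose by 3.22 ± 0.38, Cspg4 by 3.14 ± 0.31, Des by 3.34 ± 0.29 and Acta2 by 2.59 ± 0.33, with Des well above background on 1 KC array, whereas Myh11, the smooth muscle myosin gene, was at -0.37 ± 0.24 (limma adjusted p = 0.214). All 10 fibroblast genes were called higher (median 3.11), 9 of them with either block, and their summed level ran from 201 to 268 across KC and from 1134 to 1417 across KCS arrays. The collagen cross-linking enzyme gene Lox rose by 4.28 ± 0.21, the collagen genes Col1a1 and Col1a2 by 3.29 ± 0.23 and 3.12 ± 0.17, and Lum by 3.11 ± 0.22. The call of Dcn was lost without KC replicate 1, KC replicate 3, KCS replicate 1 or KCS replicate 3 (limma adjusted p up to 0.137), and also with the slide as a block, with the replicate number as a block and on slide 2 alone (limma adjusted p = 0.0592, 0.0931 and 0.221). Of 14 leukocyte genes 10 rose and 1 fell (median 4.04), with sums from 67.6 to 89.2 across KC and from 381 to 556 across KCS arrays. The one that fell, the T cell gene Cd3e, was at -2.16 ± 0.56 and at 0.73 with spike-in scaling. Its call was lost without KCS replicate 2 (limma adjusted p = 0.0503), when none fell, and 3 leukocyte genes fell without KC replicate 1 or on slide 2 alone. Myeloid genes were among the risen, Aif1 with 5.38 ± 0.28, Tyrobp with 4.77 ± 0.34, Fcer1g with 4.23 ± 0.32 and Cd14 with 4.18 ± 0.26. The myeloid gene Itgam was not called, at -0.90 ± 0.42 by its brighter probe (limma adjusted p = 0.108). All 12 acinar genes fell, among them the lipase gene Pnlip at -16.56 ± 1.18, whose size rests on signals near background since it was well above background on 1 KCS array, the protease gene Ctrl at -13.48 ± 1.37 and the transcription factor genes Bhlha15 at -9.63 ± 1.62 and Nr5a2 at -3.46 ± 0.44. With spike-in scaling the call of Nr5a2 was lost (-0.57, limma adjusted p = 0.167). With 1 array left out 9 to 12 acinar genes were called lower. On slide 2 alone the calls of Cpa1, Cpb1, Cela3b and Rbpjl were lost (limma adjusted p = 0.0600, 0.0793, 0.0572 and 0.0714). For comparison, the 10 endothelial genes summed to between 24.7 and 27.1 on the KC and between 40.7 and 86.6 on the KCS arrays.

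Platelet genes bear on Vwf, Pecam1 and Selp, which platelets also carry. Of 9 tested, 5 were called higher and 1 lower (median 1.10, with 0.72 at the bounds and -0.65 under normexp correction). These are 55.6% and 11.1%, beside 25.9% and 34.4% of all rows. Of the 5, 4 were at background on all KC arrays and so passed the filter through KCS alone. With normexp correction 2 were called higher and 5 lower, a setting that called 25% of all rows higher and 55% lower. The count called higher was 3 on slide 2 alone, without KC replicate 1 or without KC replicate 3, and 2 without KCS replicate 1 or KCS replicate 2. The sum over the list ran from 3.46 to 6.09 across KC and from 11.3 to 25.6 across KCS arrays. Itgb3, an integrin gene that macrophages and stromal cells also use, rose by 5.21 ± 0.44. Gp6, the collagen receptor gene, was the one that fell, by 2.84 ± 0.29, with 2 KCS arrays well above background, and it was at 0.05 with spike-in scaling. Ppbp, Treml1 and Clec1b stayed at background on all KC arrays, and their levels in KCS were at least 1.64-fold, 1.74-fold and 3.72-fold higher, though normexp correction gave -0.39, -0.69 and 0.23. Gp9 was also at background on all KC arrays, its bound allows no change, normexp correction gave -1.36, and its call was lost without any single array other than KCS replicate 3 (limma adjusted p up to 0.105). Of the defining platelet receptors, Gp1ba and Gp5 were at background on all 6 arrays and Itga2b was well above background on 2 of them. Gp9 and Gp1bb, partners of Gp1ba in its receptor, were well above background on all 3 KCS arrays, and Gp1bb was not called (limma adjusted p = 0.351). Clec1b was at 0.75, -0.88 and -3.29 on KCS replicates 1, 2 and 3. Of the 10 members 6 had that order, Vwf among them, so it is not particular to Vwf. The call of Clec1b was lost without any single array other than KC replicate 2 and KCS replicate 3 (limma adjusted p up to 0.0885). The part of platelets, leukocytes, fibroblasts and mural cells in the endothelial values was not tested.

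By the root mean square distance of values centred on their own mean over the 6 arrays, the named genes nearest to the median profile of the 10 members were Gucy1a2 (0.0799), Dennd4a (0.0868), Prss46 (0.0982), Galr2 (0.104) and Camkk1 (0.107), on the log2 scale. Gucy1a2, a subunit gene of the soluble guanylate cyclase that senses nitric oxide, was at -1.66, -1.62 and -1.28 on KC and at -0.01, -0.06 and -0.69 on KCS arrays. Prss46 and Galr2 lay near the lower end of the scale, at -5.24 to -4.92 on KC arrays, under the lowest signals well above background there. Each of the 5 shares with the members a KCS replicate 3 that was lower than the other KCS arrays, which follows from their choice by that profile.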

How the data were processed

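RNA of 3 KC and 3 KCS samples was hybridised to 6 one-colour Agilent arrays. Part of the genotype that both groups share is not reported here. The deposited scanner files give each spot's processed intensity, in scanner units and with background removed, from Agilent Feature Extraction 12.0.3.1 per the submitters' processing notes. The series' deposited value table holds log2 values, which matched the scanner values after the scaling below and centring of each probe on its median (r = 0.999999 or above, across probes). Spots marked as outliers were left out, spots of a probe averaged, and log2 signals set relative to each array's 75th percentile over non-control probes. Rows well above background on at least 3 arrays were fitted with limma 3.58.1 in R 4.3.3 (two-sided, no covariates, Benjamini-Hochberg adjustment over 27096 rows, threshold 0.05). The brightest probe stood for a gene. Accessions were matched, without version, to RefSeq records of GRCm38.p6, and the files name another build. The fit was tested on simulated data. A "bound" sets the brighter group's mean against the dim group's lowest signals well above background. It is taken on the 75th percentile scale and is not a minimum under other settings. Slide 1 held replicate 1 and slide 2 replicates 2 and 3 of both groups. The members and the 12 other lists were chosen with earlier results of these data known. Genes named were the members, the ligands, co-receptors and partners, Setdb1, up to 4 called genes with the smallest p in each direction of a list, dim defining markers, and the 5 nearest genes. Others (Erg, Sox17, Gata2, Sele, Lyve1, Dcn, Myh11, Itgam, Gp9, Gp1bb) were named after their values were seen. The planned normexp correction on mean signals was not run, since median signals (offset 50) were used in its place. That offset is close to the 75th percentile of processed signals on KC arrays and far below that on KCS arrays. Dim probes therefore come out lower in KCS under this setting. The correction on median signals and the within-array ratios were added after the data were seen. Alternatives were other scalings, filters, probe rules, blocks, single slides and arrays left out. The number of arrays limits precision. Promoter bases came from the RefSeq table. Python 3.11.15 drew the figures.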

Additional observations from a re-analysis of the deposited data

How the results depend on the processing

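The count of endothelial genes called higher was 8 in the main setting, 5 within the second slide alone and 6 to 9 with 1 array left out, and none was called lower in any alternative with a test. Their median log2 change was 1.15 to 1.58 with 1 array left out and 4.2 with spike-in scaling. Over the genes of the 12 other lists, 74 were called higher and 22 lower, with 61 to 81 and 16 to 23 when 1 array was left out, 119 and 11 with spike-in scaling, and 35 lower with normexp correction. Flt1 turned from -0.16 to 0.20 with median centring, to 2.74 when spike-ins set the scale, 0.42 with normexp correction and 0.16 without KCS replicate 3 (-0.32 to 0.16 with 1 array left out), and Tek turned to -0.14 with normexp correction. The cause was not tested. Over all rows, normexp correction called 14889 lower against 9331, no filter called 24768 lower, and of all calls 42.9% were higher, a share that median centring put at 56.5%, spike-in scaling at 96.8%, normexp correction at 31.2% and the lack of a filter at 22.3%. Replicate number 1 marks a slide, while numbers 2 and 3 share the other. Same-numbered samples' deviations correlated at 0.33, 0.04 and 0.14 for replicates 1, 2 and 3. The 4 pairs across slides correlated at -0.12 to -0.27 and the 4 pairs on slide 2 at 0.04 to 0.18, and KC replicate 2 correlated best with KCS replicate 3 (0.09), so within slide 2 the numbers were not shown to pair the samples. With the replicate number as a block, 8 endothelial genes were again called higher and their median change was 1.30, and over all rows 6870 were called higher and 9581 lower, so the count of calls hardly moved. In the other lists the block gave 5 risen arterial and Notch genes against 3. Signal near background limits Tek, Angpt4, Flt4 and the platelet genes.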
